A study of Mus musculus with 5 samples.

Results

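The cells described here are connective tissue fibroblasts of the mouse hindlimb at E18.5 (embryonic day), compared between wild-type (WT) fetuses and fetuses that lack *Cacna1s* (KO). The nuclei were chosen by their RNA counts, so the genes of the rule are no finding. A nucleus was counted as a fibroblast when it held more than 400 and fewer than 25000 unique molecular identifiers (UMIs, each a counted RNA molecule) of genes, when the myofiber gene *Ttn* took under 1% of them, and when the tendon gene *Tnmd* and the cell cycle genes *Mki67* and *Top2a* were at 0. It also needed at least 1 UMI of at least 3 of the 10 genes *Pdgfra*, *Dcn*, *Lum*, *Dpt*, *Col14a1*, *Abca8a*, *Mfap5*, *Osr1*, *Twist2* and *Ebf2*, which together had to make up at least 0.1% of its UMIs. The rule took 1088 of 4283 WT nuclei within the depth limits (25.4%, exact binomial 95% interval 24.1 to 26.7) and 681 of 3229 KO nuclei (21.1%, interval 19.7 to 22.5), or 1769 of the 22301 nuclei in the series. Because PCM1-positive myonuclei and PCM1-negative nuclei were sorted and then mixed in equal volumes, these shares are not abundances in the tissue. The KO file used here holds 3621 barcodes. That is fewer than the KO nuclei counted in the study after filtering, so the KO nuclei here may not be the same set.

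The series read RNA and open chromatin in the same nuclei of hindlimb skeletal muscle, dissected without skin or bone, in 1 library for each of 5 groups. The WT libraries, all C57bl6n, came from E14.5 and E18.5 fetuses, postnatal day 5 (P5) pups and adults, and Cacna1s-/- C57bl6n fetuses gave 1 library at E18.5. The KO allele carries a cassette that removes the coding region of *Cacna1s*, in every cell of the animal. Hindlimbs of several animals were pooled for each library, 14 for WT and 26 for KO at E18.5, and 56, 8 and 4 at E14.5, P5 and adult. There is 1 library for each genotype, so no difference has a check by replicates, no test was made, and genotype cannot be told apart from library. Every interval given is a 95% interval that covers counting error only.

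*Cacna1s* encodes the voltage sensor that couples excitation of the muscle membrane to calcium release, and muscle without it cannot contract. Fibroblasts of the muscle and its fascia do not contract with the fiber, but they make and turn over the collagens, glycoproteins and elastic fibers around it, and they are known to read tension through integrins, the actin cytoskeleton and the YAP and SRF regulators. They also secrete signals for vessels, nerves and muscle progenitors, and some of them can turn into adipocytes.

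The fibroblast sums held 6209819 UMIs in WT and 4977252 in KO, with medians of 5171.5 and 6483 UMIs per nucleus. KO fibroblasts carried fewer mitochondrial UMIs (0.176% in WT and 0.0748% in KO) and more UMIs of 3 genes that overlap the ribosomal RNA repeat, *Gm42418*, *Gm26917* and *AY036118* (0.406% and 0.901%). ATAC counts summed to 7705497 and 1832528. Scrublet called 47 WT and 60 KO fibroblasts doublets, 378 KO and 125 WT nuclei lay above the depth limit, and 1 barcode was shared between the WT and KO fibroblasts.

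The genes that chose the nuclei describe them but support nothing. All 6 markers of connective tissue fibroblasts (*Pdgfra*, *Dcn*, *Lum*, *Dpt*, *Col14a1* and *Mfap5*) stood above their level in endothelial nuclei of the same library. Levels are given as CPM, UMIs scaled to the same total of gene UMIs in each group. *Pdgfra*, the receptor that marks fibro-adipogenic cells, read 343 CPM in WT and 375 CPM in KO, against 37.2 and 49.5 CPM in endothelial nuclei. The microfibril gene *Mfap5* read 166 and 39.6 CPM, *Dpt* 79.9 and 28.9 CPM, and the proteoglycan *Lum* 95.01 and 38.2 CPM, so the KO nuclei matched the label with less of these 3 genes. Just inside the rule, 95 WT and 110 KO nuclei held exactly 3 of the 10 markers. Just outside it, 55 and 47 nuclei met every other condition with 2 markers.

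The deleted gene had 25 UMIs in WT fibroblasts (4.03 CPM) and 0 UMIs in KO fibroblasts. *Cacna1s* is a myofiber gene, and its WT UMIs lay in 17 of 1088 nuclei. Myofiber markers summed to 628 CPM in WT and 632 CPM in KO fibroblasts. *Acta1*, the skeletal muscle actin, was 3.40-fold lower and *Ckm*, the muscle creatine kinase, 2.30-fold lower in KO, while *Ttn*, which the rule limits, read 452 CPM in WT and 581 CPM in KO.

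A gene was measured when at least 20 UMIs came from 1 of both libraries, and it was called higher or lower when its CPM differed by at least 2-fold. Of 12757 measured genes, 940 were higher in KO (7.37%) and 740 were lower (5.8%), and the median log2 ratio of KO over WT was -0.08. These counts include 11 measured genes of the rule, of which 3 were lower and 0 higher. Higher genes rested more often on a handful of nuclei. In 167 of the higher genes, 10 nuclei held over 80% of the KO UMIs, and the same was true of the WT UMIs of 24 of the lower genes.

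**Figure D1:**
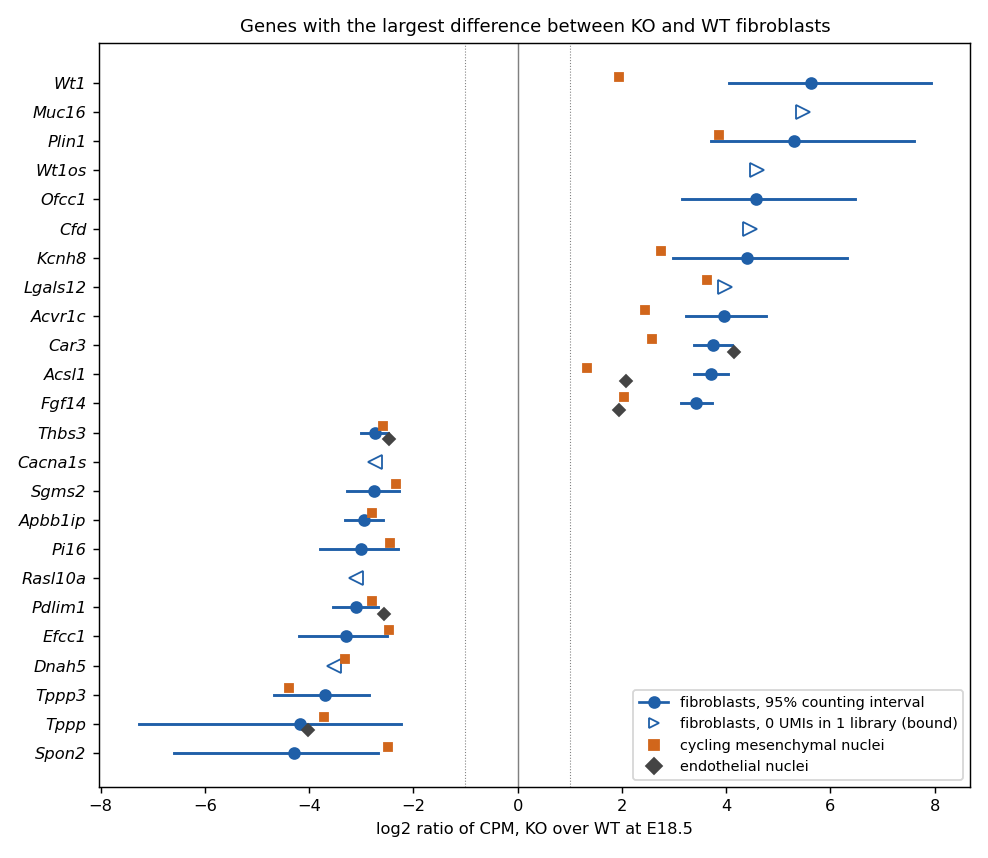
log2 ratio of CPM (KO over WT, x axis) of the 12 higher and 12 lower genes whose counting interval stayed farthest from no difference, with values in cycling mesenchymal and endothelial nuclei of the same libraries where the gene was measured there. Bars are 95% counting intervals, open triangles are bounds for genes with 0 UMIs in 1 library, and dotted lines mark 2-fold. The lower genes measured in cycling mesenchymal nuclei were lower there too.

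The genes most reduced in KO fibroblasts included a matrix glycoprotein, cytoskeletal adaptors and tubulin-binding proteins. *Thbs3*, a thrombospondin secreted into the matrix, had 1108 UMIs in WT and 133 in KO (178 and 26.7 CPM), which was 6.68-fold lower (5.57 to 8.05). *Pdlim1*, which links alpha-actinin to stress fibers, had 545 and 51 UMIs (87.8 and 10.2 CPM) and was 8.57-fold lower (6.42 to 11.6). *Apbb1ip*, known as RIAM, which helps Rap1 to activate integrins, had 681 and 71 UMIs (109.7 and 14.3 CPM) and was 7.69-fold lower (6.01 to 9.96). The tubulin-binding genes *Tppp3* (194 and 12 UMIs) and *Tppp* (45 and 2 UMIs) were 12.96-fold (7.25 to 25.5) and 18.03-fold lower (4.71 to 153), and *Sgms2*, a sphingomyelin synthase, was 6.77-fold lower (4.87 to 9.65). *Spon2*, a secreted matrix protein, went from 73 UMIs to 3 and was 19.5-fold lower (6.42 to 96.8). *Efcc1* was 9.85-fold lower. *Dnah5*, a dynein heavy chain, and *Rasl10a* had 43 and 32 UMIs in WT and 0 in KO, at least 11.5-fold and at least 8.55-fold lower when a count of 0 is set to a floor of 3 UMIs in that library. The floor leaves out the counting error of the other library, and the same floor stands behind each "at least" given here.

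Several of these genes were also lower in other nuclei of the same libraries. Cycling mesenchymal nuclei, which met the same marker conditions but held *Mki67* or *Top2a*, numbered 387 in WT and 381 in KO. Of their genes, 3.99% were lower and 6.41% higher. There *Thbs3* was 5.95-fold, *Pdlim1* 6.90-fold, *Apbb1ip* 6.91-fold and *Tppp3* 20.9-fold lower. Endothelial nuclei (112 WT and 99 KO) held at least 3 vessel markers, came from the same libraries and could also hold *Tnmd*, *Mki67* or *Top2a*. Among their genes, 4.92% were lower. *Pdlim1* was 5.92-fold lower there (167 and 38 UMIs), *Tppp* 16.2-fold lower (36 and 3 UMIs) and *Thbs3* 5.54-fold lower (37 and 9 UMIs), whereas *Apbb1ip* had 18 and 17 UMIs. How far these differences belong to the library as a whole was not tested.

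Most of the largest increases were of mesothelial or adipocyte genes. *Wt1* (3 UMIs in WT, 119 in KO), its antisense neighbor *Wt1os* (0 and 58) and *Muc16* (0 and 107) are known from mesothelium, the lining of body cavities. *Wt1* was 49.5-fold higher (16.5 to 243), *Muc16* at least 44.5-fold and *Wt1os* at least 24.1-fold higher. All 107 *Muc16* UMIs lay in 9 nuclei, whereas *Wt1* was found in 45 KO nuclei (6.61%). WT nuclei of the same rule at E14.5 read 22.6 CPM of *Wt1* and 10.3 CPM of *Wt1os*, against 23.9 and 11.7 CPM in KO. They read 3.43 CPM of *Muc16*, against 21.5 CPM in KO. Whether counting used the strand is not given in the sources used here. The annotated spans of *Wt1os* (105076538 to 105126510) and *Wt1* (105126529 to 105173616) on chromosome 2 do not overlap. A mesothelial marker list, drawn up after values had been seen, summed to 1.93 CPM in WT and 74.1 CPM in KO. In WT, 6 of its 9 members were at 0 UMIs. All 6 measured members were higher. With so few WT UMIs they could be measured only through KO and had to be called higher, so this count only describes the list. At least 2 of its markers were held by 8 KO nuclei and 0 WT nuclei, where 0 of 1088 allows a share of up to 0.338% (exact binomial).

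*Plin1*, which coats lipid droplets, had 3 UMIs in WT and 95 in KO and was 39.5-fold higher (13.1 to 195). *Cfd*, the secreted adipsin, had 0 and 53 UMIs, at least 22.04-fold higher, and the lipid droplet protein *Lgals12* had 0 and 38, at least 15.8-fold higher. *Acsl1*, which activates fatty acids, read 14.7 and 191 CPM and was 13.04-fold higher (10.5 to 16.4). *Car3*, a carbonic anhydrase abundant in fat, read 11.1 and 149 CPM and was 13.4-fold higher (10.4 to 17.4), and the activin receptor gene *Acvr1c* was 15.5-fold higher (9.44 to 27.1). These sums rest on few nuclei, as 10 KO nuclei held 84.4% of the *Acsl1*, 83.4% of the *Car3* and 91.6% of the *Plin1* UMIs. *Fgf14* was 10.7-fold higher (8.77 to 13.2), with 10 nuclei at 64.2% of its KO UMIs. *Ofcc1* (4 and 76 UMIs) and *Kcnh8* (4 and 68) were 23.7-fold and 21.2-fold higher, each from under 10 KO nuclei.

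Of 27 measured adipogenic genes, 13 were higher in KO and 1 was lower (*Scd1*), beside 7.37% and 5.8% of all genes. The median log2 ratio was 0.98 against -0.08 over all genes. Members with few WT UMIs, such as *Plin1* (3 UMIs), could be measured only through KO and had to be called higher. The count therefore only describes the list, here and in the other nuclei below. *Pparg*, the master regulator of fat cells, read 42.7 CPM in WT and 209 CPM in KO and was 4.90-fold higher (4.27 to 5.62). The fatty acid carriers *Cd36* and *Fabp4* were 7.07-fold (5.32 to 9.54) and 11.7-fold (6.597 to 22.6) higher, the adipokine *Adipoq* 10.2-fold (4.36 to 29.1) and the lipoprotein *Apoe* 6.67-fold (4.95 to 9.15). Nuclei with at least 2 adipocyte markers numbered 3 in WT (0.276%) and 17 in KO (2.50%). Endothelial nuclei, with medians of 5848.5 and 8487 UMIs against 5171.5 and 6483 in fibroblasts, held 2 of these markers in 5.36% and 11.1%. There the 7 markers summed to 212 and 254 CPM, with 5 of them at 0 UMIs in WT, against 13.2 and 85.6 CPM in fibroblasts. The endothelial shares are therefore no measure of background. Leaving out these nuclei and those with 2 mesothelial markers (1085 WT and 656 KO nuclei remained), 7 of 22 adipogenic genes were still higher, beside 6.32% of all genes, and the list median was 0.35. *Pparg* was then 2.98-fold higher (2.52 to 3.53) and *Acsl1* 1.604-fold (1.16 to 2.23). *Plin1*, a member of both the adipogenic list and the adipocyte markers that removed nuclei, was at 0 in both genotypes. Its loss, and part of the fall in the list, followed from that choice of nuclei. *Dlk1*, which holds preadipocytes back from becoming fat, read 2016 CPM in WT and 1392 CPM in KO, 1.45-fold lower. Adipogenic genes were also higher in 13 of 25 in cycling mesenchymal nuclei, beside 6.41% of all genes there, with a median of 1.34. In endothelial nuclei they were higher in 6 of 16, beside 7.57% of all genes, with a median of 0.59. *Car3* was 17.8-fold (2 and 48 UMIs) and *Acsl1* 4.25-fold (18 and 103 UMIs) higher in endothelial nuclei.

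Markers of several other cell types were more abundant in KO fibroblasts and those of others were not. Macrophage markers were higher in 5 of 7 and summed to 78.9 CPM in WT and 217 CPM in KO. Adipocyte markers were higher in 6 of 6 (13.2 and 85.6 CPM), erythroid and keratinocyte markers in 4 of 5 (13.4 and 61.1 CPM), Schwann and glia markers in 2 of 4 (26.2 and 84.4 CPM) and progenitor markers in 2 of 5 (83.4 and 168 CPM). Over all genes, 7.37% were higher and 5.8% lower. A marker with few WT UMIs could be measured only through KO and then had to be called higher. In WT, 2 of the 7 adipocyte markers were at 0 UMIs. These counts therefore only describe the lists. Endothelial markers summed to 211 CPM in WT and 137 CPM in KO, with 2 of 8 higher and 2 lower. The fall in that sum came from *Tek* (log2 ratio -1.67), whose CPM are given below, and the other members together did not fall. Of 7 smooth muscle markers, 1 was lower. Chondro-osteogenic markers summed to 56.5 and 27.7 CPM, with 2 of 4 lower, and 1 of 4 tenocyte markers was higher and 1 lower. The leukocyte gene *Ptprc* had 16 and 73 UMIs, and the hemoglobin gene *Hbb-bs* 26 and 76. The part of these in the higher genes was not tested. With nuclei that held 2 markers of any 1 other cell type left out (510 WT and 264 KO remained), 461 genes were higher (4.71%) and 863 lower (8.82%).

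**Figure D2:**
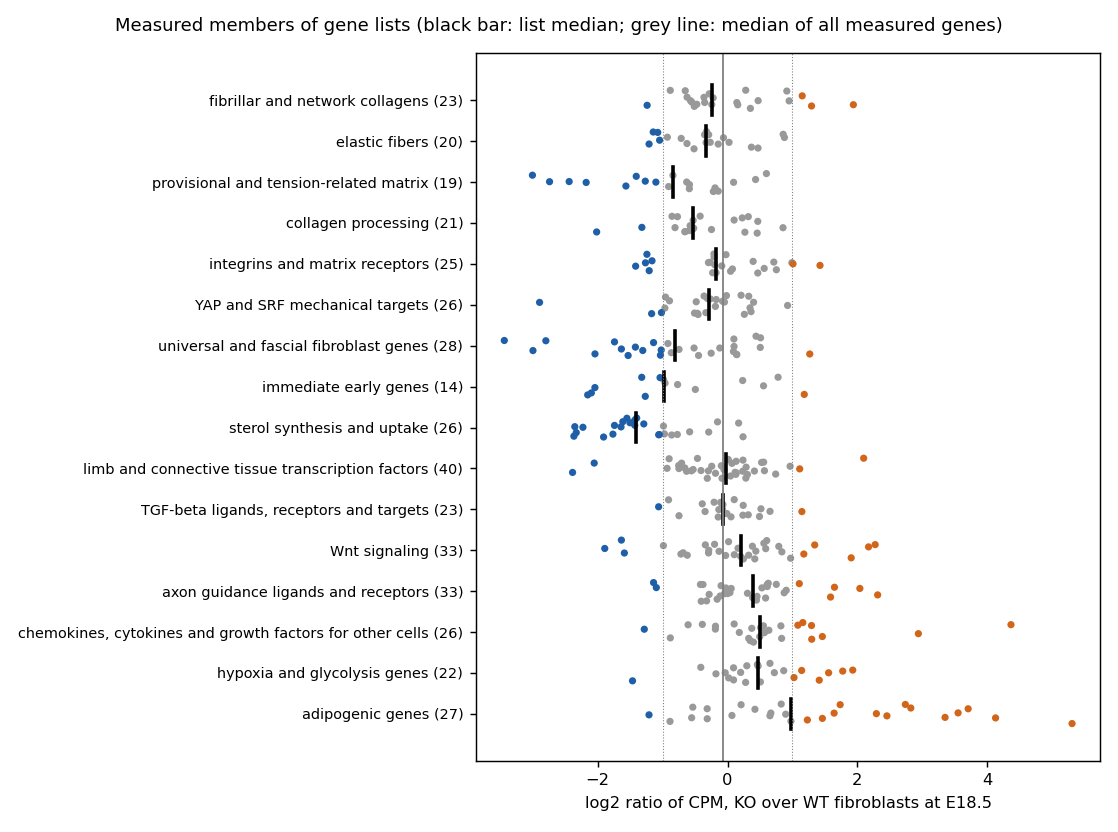
log2 ratio of CPM (KO over WT, x axis) of every measured member of 16 gene lists, with the number measured in brackets. Orange and blue points are at least 2-fold higher and lower, grey points lie within 2-fold, and dotted lines mark 2-fold. Sterol genes and the provisional matrix lie to the left, with medians of -1.41 and -0.84, and adipogenic genes to the right with 0.98.

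In the list of provisional and tension-related matrix glycoproteins, 8 of 19 were lower and 0 higher, beside 5.8% and 7.37% of all genes. The median was -0.84. *Tnxb*, the tenascin that spaces collagen fibrils, had 3709 UMIs in WT and 658 in KO (597 and 132 CPM), 4.52-fold lower (4.16 to 4.92). Tenascin-C (*Tnc*), found where tissue bears load, read 94.7 and 17.5 CPM, 5.42-fold lower (4.32 to 6.87), although 10 nuclei held 60.9% of its KO UMIs. Fibronectin (*Fn1*) read 667 and 310.4 CPM, 2.15-fold lower (2.02 to 2.28). *Thbs4* was 2.96-fold (2.29 to 3.85) and *Tgfbi* 2.65-fold (1.95 to 3.64) lower, and the sparse *Comp* and *Tnn* had 20 and 30 UMIs in WT and 2 and 10 in KO. Not all of this group moved. Periostin (*Postn*) read 1871 and 1638 CPM, *Sparc* 491 and 326 CPM, versican (*Vcan*) 2102 and 2242 CPM, and *Thbs2* 89.5 and 136 CPM. In cycling mesenchymal nuclei 4 of 16 were lower (3.99% of all genes there), with a median of -0.58, and in endothelial nuclei 2 of 12 were lower (4.92% of all genes) and 1 higher (7.57%). In tenocyte nuclei, which held *Tnmd* (144 WT and 41 KO), 7 of 16 were lower, beside 13.6% of all genes there, and 0 higher, beside 3.6%.

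Collagens changed little and not all in the same direction. Of 23 genes, 3 were higher and 1 lower, beside 7.37% and 5.8% of all genes, with a median of -0.24. The main fibril collagens were below WT but within 2-fold: *Col1a1* read 1394 and 757 CPM (1.84-fold lower, 1.77 to 1.91), *Col1a2* 2243 and 1574 CPM and *Col3a1* 2993 and 2018 CPM. The minor fibril collagen *Col5a3* was 2.36-fold lower (2.14 to 2.60). Transmembrane *Col23a1* (3.83-fold, 3.26 to 4.52) and *Col25a1* (2.22-fold, 1.99 to 2.48), and *Col26a1* (2.45-fold, 1.95 to 3.10), were higher. Among 21 collagen processing genes 2 were lower, the proline hydroxylase subunit *P4ha3* by 4.04-fold (504 and 100 UMIs; 3.25 to 5.06) and the procollagen protease *Adamts14* by 2.49-fold.

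Elastic fiber genes were lower in 4 of 20 and higher in 0, beside 5.8% and 7.37% of all genes, with a median of -0.33. *Fbn1*, the main microfibril protein, read 893 and 424 CPM, 2.11-fold lower (2.00 to 2.21), and its partners *Ltbp4*, *Loxl1* and *Loxl2* were 2.06-fold, 2.31-fold and 2.21-fold lower. Elastin (*Eln*) read 209 and 164 CPM. The crosslinking enzyme *Lox*, in contrast, read 39.9 CPM in WT and 72.3 CPM in KO. The proteoglycan *Prelp* was 4.12-fold lower (72 and 14 UMIs). Nuclear RNA measures transcripts in the nucleus, so these values say nothing of the protein in the matrix.

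Among 25 integrins and matrix receptors, 5 were lower and 2 higher, beside 5.8% and 7.37% of all genes. The fibronectin receptor subunit *Itga5* (81.5 and 34.0 CPM) was 2.40-fold lower (2.01 to 2.87), *Itgb3* (41.2 and 15.5 CPM) 2.66-fold lower (2.06 to 3.48) and the hyaluronan receptor *Cd44* (485 and 217 CPM) 2.24-fold lower (2.09 to 2.40), while *Itga8* was 2.68-fold higher (2.27 to 3.18). The shared beta subunit *Itgb1* read 254 and 223 CPM. Of 26 YAP and SRF targets, 3 were lower and 0 higher, with a median of -0.29, and most lay within 2-fold. *Tagln2*, an actin-binding protein, had 139 and 15 UMIs and was 7.43-fold lower (4.35 to 13.6), *Zyx* of focal adhesions was 2.25-fold and the receptor *Axl* 2.02-fold lower. The best known YAP targets lay inside 2-fold, *Ccn1* at 23.5 and 12.1 CPM and *Ccn2* at 4.67 and 2.41 CPM. *Yap1* itself read 128 and 162 CPM, the tension-gated channel *Piezo1* 104 and 65.1 CPM and *Piezo2* 384 and 423 CPM.

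Immediate early genes, which cells switch on within minutes of a stimulus, were lower in 6 of 14 and higher in 1 (*Zfp36*). Over all genes 5.8% were lower and 7.37% higher, and the list median was -0.97. *Jun* read 43.0 and 10.4 CPM, 4.12-fold lower (3.05 to 5.65), *Klf2*, a flow and tension responsive factor, 4.44-fold lower (2.81 to 7.35) and *Fos* 4.27-fold lower (32 and 6 UMIs; 1.76 to 12.5). *Egr1* had 52 and 49 UMIs. In endothelial nuclei 1 of 8 was lower, beside 4.92% of all genes there, and the median was -0.71.

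Genes of the universal and fascial fibroblasts, the *Pi16*- and *Dpp4*-positive cells known from fascia and adventitia, were lower in 12 of 28, beside 5.8% of all genes. In this list 1 gene was higher (*Nt5e*), and the median was -0.81. *Pi16* had 179 UMIs in WT and 18 in KO, 7.97-fold lower (4.90 to 13.8). *Cd55*, which shields cells from complement, read 126 and 30.7 CPM and was 4.11-fold lower (3.45 to 4.92). *Dpp4* (103 and 41.8 CPM) was 2.47-fold, *Clec3b* 2.89-fold and *Ly6a*, the Sca-1 antigen, 6.95-fold lower (78 and 9 UMIs), and *Dact2* was 10.8-fold lower (54 and 4 UMIs). The broadly expressed *Fap* read 1233 and 1363 CPM. Cycling mesenchymal nuclei had 10 of 26 genes of the list lower, beside 3.99% of all genes there, with a median of -0.54. Endothelial nuclei had 5 of 17 lower (4.92% of all genes) and tenocyte nuclei 2 of 20 (13.6%).

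In these sums fewer nuclei of a kind and less RNA in each cannot be told apart. At least 2 of 7 fascial markers were found in 330 WT nuclei (30.3%) and 76 KO nuclei (11.2%). After thinning each nucleus to 2000 UMIs, the shares were 15.3% (162 of 1056) and 2.80% (19 of 678). Endothelial nuclei, with 778977 and 1049822 UMIs and medians of 5848.5 and 8487, also held 2 of these markers in 23.2% and 20.2%. They were deeper by median than the fibroblasts, and *Anxa3*, one of the 7, had 157 and 110 endothelial UMIs. These endothelial shares are therefore no measure of background either. Within the fascial marker nuclei (330 and 76), the list was lower in 5 of 26, beside 10.6% of all genes. Without them (758 and 605 nuclei), it was lower in 2 of 23, beside 5.01%, and its median was -0.12.

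The provisional matrix was lower both within the fascial marker nuclei, in 6 of 15, and without them, in 6 of 17. Of all genes, 10.6% and 5.01% were lower in these sets, and 5.69% and 7.29% were higher. *Thbs3* was 7.05-fold lower within (430 and 19 UMIs) and 6.38-fold lower without (678 and 114), *Tnxb* 3.98-fold and 4.34-fold, *Pdlim1* 7.57-fold and 7.90-fold. The fascial markers were chosen after values were seen, and they took part in defining both sets of nuclei.

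The transcription factors of limb and connective tissue lay mostly within 2-fold. Of 40, 2 were lower and 2 higher, beside 5.8% and 7.37% of all genes, and the median was -0.02. *Creb5*, a factor of the CREB and AP-1 kind, had 8112 and 1568 UMIs (1306 and 315 CPM) and was 4.15-fold lower (3.93 to 4.38). *Klf4* read 58.8 and 11.3 CPM and was 5.22-fold lower (3.93 to 7.05), and *Klf5*, its relative, was 4.28-fold higher (82 and 281 UMIs; 3.33 to 5.54). *Runx1* was 2.16-fold higher. The factors that mark muscle connective tissue did not reach 2-fold, with *Tcf7l2* at 1305 and 1320.0 CPM and *Prrx1* at 407 and 442 CPM. The hindlimb factors *Tbx4* (45.3 and 27.7 CPM) and *Pitx1* (26.6 and 18.1 CPM) were 1.63-fold and 1.47-fold lower.

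**Figure D3:**
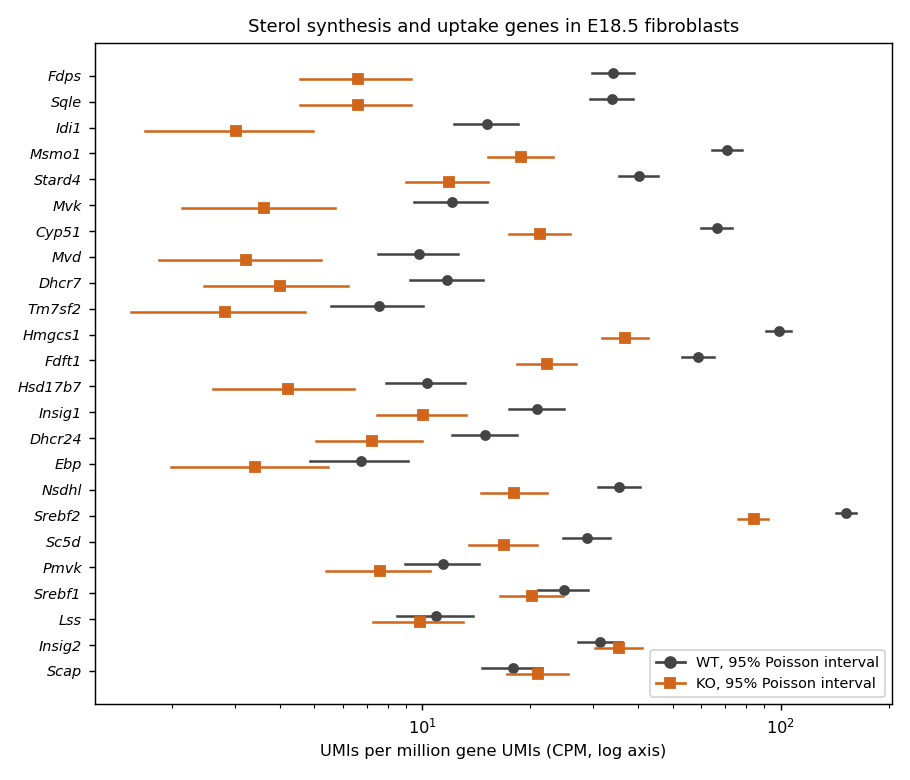
CPM (log axis) of 24 measured genes of sterol synthesis and uptake in WT (grey circles) and KO (orange squares) fibroblasts with exact Poisson 95% intervals. The intervals of *Hmgcs1*, at 98.9 CPM in WT and 36.8 CPM in KO, lie far apart, while those of *Lss*, *Insig2* and *Scap* overlap.

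Most genes of sterol synthesis and uptake were lower. The list was drawn up after values had been seen, so its count only describes it: 17 of 26 were lower, 9 lay within 2-fold and 0 were higher, with a median of -1.41. Over all genes, 5.8% were lower. The synthase *Hmgcs1*, near the head of the pathway, had 614 and 183 UMIs (98.9 and 36.8 CPM) and was 2.69-fold lower (2.28 to 3.19). *Idi1*, *Fdps* and *Sqle*, which build and oxidize the isoprenoid chain, were 5.02-fold, 5.15-fold and 5.10-fold lower, and the demethylation steps *Cyp51* and *Msmo1* 3.12-fold and 3.75-fold lower. *Insig1*, which is induced with the pathway, was 2.08-fold lower (1.49 to 2.95). *Srebf2*, the factor that drives these genes, read 152 and 84.0 CPM (1.81-fold lower, 1.61 to 2.04), while its relative *Srebf1* read 24.8 and 20.3 CPM and its escort *Scap* 17.9 and 21.1 CPM.

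Leaving out marker nuclei changed this count little. Sterol genes were lower in 18 of 26 without adipocyte and mesothelial marker nuclei (6.61% of all genes). They were lower in 18 of 26 within fascial marker nuclei (10.6%) and in 16 of 26 without them (5.01%). In cycling mesenchymal nuclei 7 of 23 sterol genes were lower, beside 3.99% of all genes there, with a median of -0.85. In endothelial nuclei 3 of 8 were lower, beside 4.92%, with a median of -0.59.

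Secreted signals were higher more often than lower. Of 26 chemokines, cytokines and growth factors for other cells 7 were higher and 1 lower (*Angptl2*), beside 7.37% and 5.8% of all genes. The median was 0.50. *Cxcl12*, which draws leukocytes and progenitors, had 256 and 503 UMIs (41.2 and 101 CPM) and was 2.45-fold higher (2.10 to 2.86). *Angpt1* (157 and 332 CPM) and *Angpt2* (12.6 and 34.6 CPM), ligands of the vessel receptor Tie2, were 2.12-fold and 2.75-fold higher, and *Tek*, the gene of that receptor, was 3.19-fold lower in the fibroblasts (124 and 38.8 CPM; 2.72 to 3.75). The neurotrophic *Gdnf* was 7.66-fold higher (7 and 43 UMIs; 3.42 to 20.2). *Hgf*, which activates muscle progenitors, was 2.34-fold (2.09 to 2.61) and *Fgf10* 2.37-fold (2.19 to 2.57) higher, and *Igf1* read 885 and 1178 CPM.

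Among 33 axon guidance genes, 5 stood higher and 2 lower, beside 7.37% and 5.8% of all genes, around a median of 0.39. The repellent *Slit2* read 110.3 and 547 CPM, 4.96-fold higher (4.56 to 5.40), and *Slit3* 381 and 1195 CPM, 3.13-fold higher (2.99 to 3.29). *Unc5c*, *Sema6d* and *Epha3* were 4.10-fold, 3.00-fold and 2.15-fold higher, and *Sema3c* (1085 and 493 CPM) was 2.20-fold lower (2.10 to 2.31). *Slit2* was 4.96-fold higher in cycling mesenchymal and 3.498-fold higher in endothelial nuclei.

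Wnt and BMP genes differed in both directions. *Lgr6*, a receptor of R-spondins, had 8 and 31 UMIs and was 4.83-fold higher (2.17 to 12.2). *Sfrp1*, a secreted Wnt inhibitor, had 95 and 343 UMIs and was 4.505-fold higher (3.58 to 5.72), whereas *Sfrp4* was 3.71-fold lower (2.74 to 5.09) and the ligand *Wnt2* 3.10-fold lower (2.08 to 4.77). In all, 5 of 33 Wnt genes were higher and 3 lower, beside 7.37% and 5.8% of all genes. *Bmper*, which binds BMPs, read 286 and 839 CPM and was 2.93-fold higher (2.77 to 3.10), the receptor *Bmpr1b* was 2.31-fold higher (2.11 to 2.52), and *Bmp4* was 2.53-fold lower (2.02 to 3.20). In all, 4 of 24 BMP genes were higher and 2 lower. The TGF-beta list was nearly flat, with 1 of 23 higher (*Bambi*), 1 lower (*Ldlrad4*) and a median of -0.07, and *Tgfb3* read 41.2 and 42.8 CPM. In the Hedgehog and Notch list 2 of 17 were higher, the Hedgehog inhibitor *Hhip* (2.31-fold) and *Hey2*, while *Gli1* read 49.4 and 45.6 CPM.

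**Figure D4:**
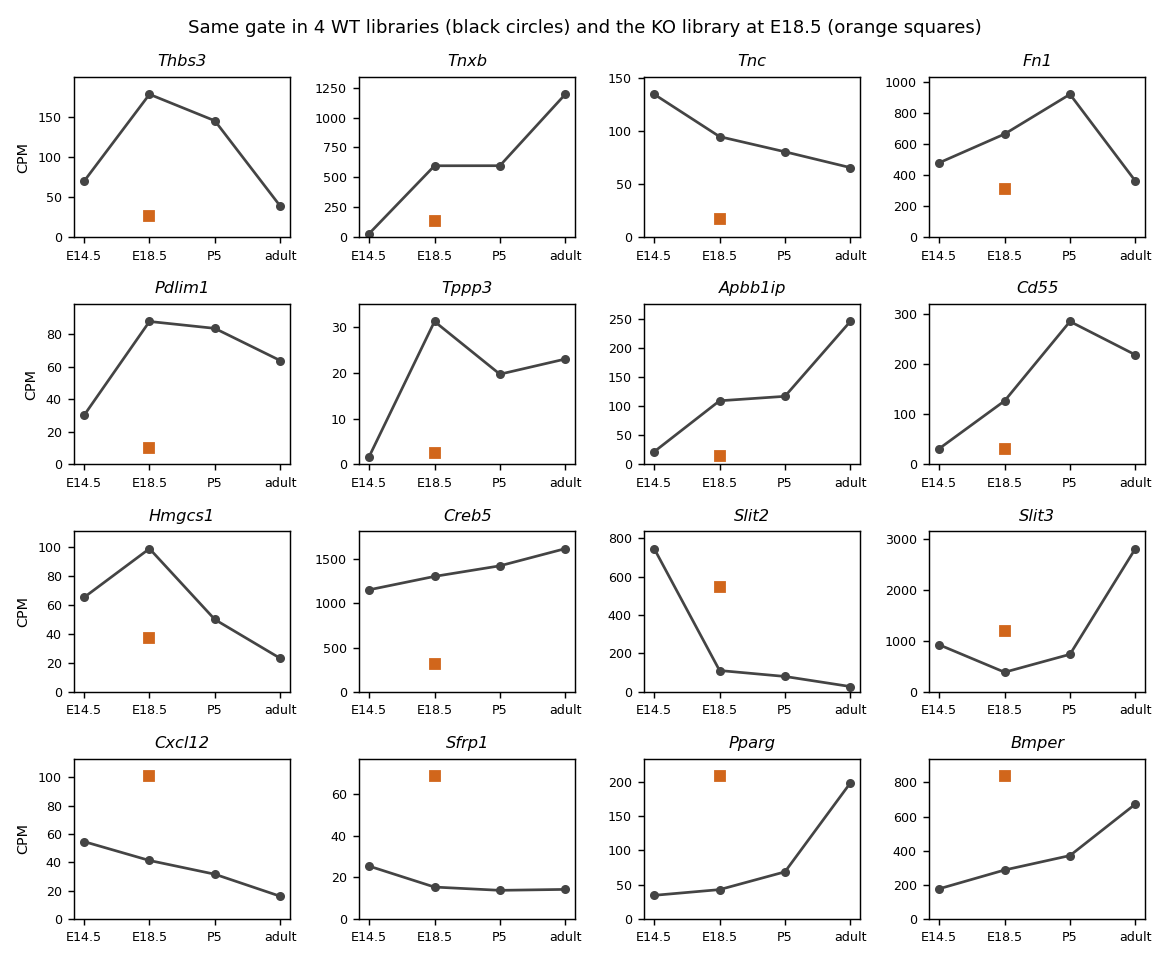
CPM of 16 genes in nuclei that met the same rule in the 4 WT libraries (black circles joined by a line) and in KO at E18.5 (orange square). Each library is 1 point with no replicate. The *Slit2* square lies between the WT circles at E14.5 and E18.5, and the *Creb5* square lies below all 4 circles.

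The same rule took 685, 1069 and 251 WT nuclei at E14.5, P5 and adult, whose levels are set beside the KO value only as levels, because WT E18.5 stands in both views. From E14.5 through E18.5 and P5 to adult, *Tnxb* read 30.9, 597, 598 and 1194 CPM, and the KO value of 132 CPM lay between E14.5 and E18.5. *Cd55* (31.6, 126, 284 and 218 CPM, KO 30.7) and *Apbb1ip* (21.96, 109.7, 117 and 246 CPM, KO 14.3) were near or below their E14.5 level in KO. *Slit2* read 747, 110.3, 79.3 and 26.6 CPM and 547 CPM in KO. Other genes left the WT range altogether. *Thbs3* read 70.0, 178, 145 and 39.0 CPM in WT and 26.7 in KO, *Creb5* 1155, 1306, 1426 and 1621 CPM and 315 in KO, and *Tnc* 135, 94.7, 80.4 and 65.6 CPM and 17.5 in KO. *Cxcl12* (54.6, 41.2, 31.5 and 15.9 CPM, KO 101) and *Sfrp1* (25.4, 15.3, 13.7 and 14.2 CPM, KO 68.9) lay above all 4. Adult nuclei were shallow, with a median of 1671 UMIs.

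Open chromatin gave a readout that the rule had not used. ATAC counts of the fibroblasts were summed over peaks within 1000 bases of each gene start and set relative to all such counts (4283041 in WT and 1128636 in KO). Peaks were called within each library, so a gene's covered length can differ. Of 16177 genes with enough counts, 298 promoters were higher in KO (1.84%) and 894 lower (5.53%). Promoters were lower at 14.7% of the 606 genes whose RNA was lower, at 2.81% of the 10262 genes within 2-fold and at 8.53% of the 692 genes whose RNA was higher. Of the genes higher in RNA, 4.62% had a higher promoter.

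**Figure D5:**
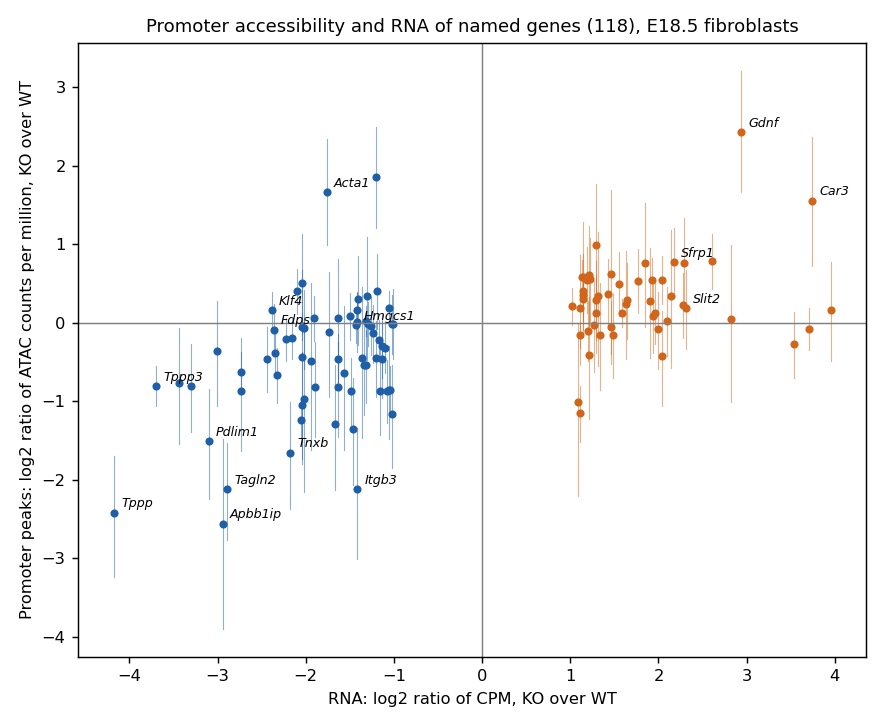
log2 ratio (KO over WT) of promoter ATAC counts (y axis) against that of RNA (x axis) for 118 named genes with a difference of at least 2-fold in RNA and a promoter peak in both libraries. Of 67 genes lower in RNA, 52 had a promoter ratio under 1 and 11 were at least 2-fold lower, and of 51 genes higher in RNA, 38 had a ratio over 1 and 2 were at least 2-fold higher.

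A few promoters lost most of their counts. *Tagln2* had 412 ATAC counts in WT and 25 in KO, a ratio of 0.23 (0.147 to 0.345), or 0.369 per kilobase of covered length. *Apbb1ip* had 157 and 7 (0.169, 0.0669 to 0.357), *Itgb3* 231 and 14 (0.23, 0.124 to 0.394), *Tppp* 325 and 16 (0.187, 0.106 to 0.308), and *Pdlim1* 216 and 20 (0.351, 0.21 to 0.556). *Tnxb* had 251 and 21 counts over 1596 and 995 covered bases, 0.318 (0.193 to 0.496) and 0.509 per kilobase. At *Thbs3* the ratio of 0.65 was 1.32 per kilobase (1804 and 889 bases covered), and at *Creb5* 0.423 was 0.794, so those depend on the peak calls. Among genes higher in RNA, *Car3* had 31 and 24 counts (2.94, 1.65 to 5.17), *Sfrp1* 144 and 65 (1.71, 1.26 to 2.31) and *Bmper* 191 and 71 (1.41, 1.06 to 1.86), while *Slit2* was at 1.14 (0.797 to 1.598). Promoter and RNA also went opposite ways. *Runx1* and *Angpt1*, higher in RNA, had promoter ratios of 0.449 (0.348 to 0.572; 0.903 per kilobase) and 0.495 (0.217 to 0.995; 0.643 per kilobase). With only peaks over the gene start, the *Angpt1* log2 ratio was 0.0097, so both depend on the peak calls. *Ckm* and *Acta1*, lower in RNA, had 3.62 (2.32 to 5.66) and 3.18 (1.98 to 5.06).

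Of the sterol promoters, some had ratios near 1 and others lay below WT within 2-fold. *Hmgcs1* had 838 and 216 counts over 892 and 891 bases, a ratio of 0.978 (0.838 to 1.14), *Fdps* 0.941 (0.744 to 1.18) and *Msmo1* 1.04 (0.851 to 1.26). *Idi1* (0.631, 0.491 to 0.802), *Cyp51* (0.729, 0.581 to 0.907) and *Sqle* (0.763, 0.616 to 0.938) had intervals below 1.

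Promoter sequences from RefSeq (mouse build GRCm38.p6, 250 bases before to 50 after the gene start, all on the + strand, 300 bases each) are shown for 3 genes whose RNA was lower: *Hmgcs1*, whose promoter kept its counts, and *Tagln2* and *Apbb1ip*, whose promoters lost them. They lie at chr13:119690101-119690400, chr1:172499996-172500295 and chr2:22774077-22774376, and each lay wholly inside 1 peak in both libraries. Capitals mark matches to the sterol regulatory element (TCACNCCAC), AP-1 (TGANTCA) or TEAD (GGAATG) on either strand, where N is any base.
Hmgcs1: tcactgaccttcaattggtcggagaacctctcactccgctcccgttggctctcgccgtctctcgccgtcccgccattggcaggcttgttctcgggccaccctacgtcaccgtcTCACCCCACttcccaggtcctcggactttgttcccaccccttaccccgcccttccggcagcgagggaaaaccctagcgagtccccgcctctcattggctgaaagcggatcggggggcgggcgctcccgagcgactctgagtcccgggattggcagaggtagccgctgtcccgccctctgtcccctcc
Tagln2: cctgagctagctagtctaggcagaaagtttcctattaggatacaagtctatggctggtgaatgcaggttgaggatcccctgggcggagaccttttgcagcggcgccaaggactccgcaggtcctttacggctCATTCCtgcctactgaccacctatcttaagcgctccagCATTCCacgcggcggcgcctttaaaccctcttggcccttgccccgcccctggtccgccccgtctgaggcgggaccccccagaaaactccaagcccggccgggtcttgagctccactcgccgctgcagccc
Apbb1ip: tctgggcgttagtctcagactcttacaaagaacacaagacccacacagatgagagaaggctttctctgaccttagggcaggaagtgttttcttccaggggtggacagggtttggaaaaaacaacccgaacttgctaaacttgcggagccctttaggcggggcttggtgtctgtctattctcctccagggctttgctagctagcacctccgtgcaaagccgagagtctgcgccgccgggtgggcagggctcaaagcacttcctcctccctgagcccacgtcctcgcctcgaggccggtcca
The *Hmgcs1* window held 1 match, to the sterol regulatory element, the *Tagln2* window 2 matches, both to TEAD on the reverse strand, and the *Apbb1ip* window held 0. Over all 32851 promoters of this length, the sterol motif was found in 1.24%, AP-1 in 7.81% and TEAD in 14.7%. Of 19 sterol genes in the promoter table, *Hmgcs1* was the one with a sterol match. A match describes letters, not binding.

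The remaining lists are given by their counts. Over all genes, 5.8% were lower and 7.37% higher. Stress genes were lower in 1 of 11 (*Hsph1*), but 10 of 11 had a ratio below 1 and the median was -0.72. Hox genes were lower in 2 of 15 (median -0.08), and matrix proteases in 2 of 24 (median -0.20), with 1 of the proteases higher (*Adamtsl2*). Of 32 FGF, IGF, HGF and PDGF genes, 3 were higher and 1 lower (*Igfbp6*), and of 8 mechanosensitive channels, 1 was higher (*Kcnk2*). Among 22 hypoxia and glycolysis genes 1 was lower and 6 stood higher, around a median of 0.47, including the mitophagy gene *Bnip3* (121 and 369 UMIs, 3.80-fold higher, 3.09 to 4.71) and the oxygen sensor *Egln3* (3.42-fold higher, 2.78 to 4.22), and *Pfkp* was 2.76-fold lower. Hormone response genes were higher in 4 of 17, with the thyroid receptor *Thrb* 3.99-fold (3.10 to 5.17) and *Pdk4* 6.08-fold (8 and 39 UMIs) higher. The clock gene *Per2* was 2.45-fold lower (2.09 to 2.87), and 3 other clock genes of 15 measured were higher. Imprinted growth genes were lower in 1 of 20, the maternally silenced *Ndn* (248 and 49 UMIs, 4.06-fold, 2.98 to 5.63), and *Igf2* read 268 and 264 CPM. Cartilage genes were sparse and lower in 4 of 14, with *Acan* at 103 and 20 UMIs, and *Mkx*, a tendon factor, was 3.09-fold higher (2.54 to 3.78). Ribosomal protein genes were higher or lower in 0 of 24, with a median of -0.01, and 7 of 12 mitochondrially encoded genes were lower, *mt-Co3* by 2.91-fold.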

How the data were processed

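RNA and ATAC counts came from nuclei of 5 pooled hindlimb muscle libraries, 1 a group. The raw counts per gene and per peak were deposited by the authors, who made them with Cell Ranger ARC 2.0.0 on mm10, with intronic reads counted and peaks called within each library. No correction for free RNA was applied here, and called doublets (Scrublet in scanpy 1.11.5) were kept and left out as an alternative.

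Here, UMIs were summed over the nuclei of each group with pandas 2.3.3 and numpy 2.4.6 under Python 3.11.15, intervals came from scipy 1.17.1 and plots from matplotlib 3.10.9. CPM carry exact Poisson intervals, ratios exact conditional binomial intervals, and a count of 0 was set to a floor of 3 counts. Because each genotype is 1 library, no test was fitted. edgeR 4.0.16 in R 4.3.3 gave the TMM and RLE factors of the alternatives. Sums and ratios were tested on simulated data. Genes were named by rule: the 12 higher and 12 lower with the ratio bound farthest from 1, up to 4 of each list, and best-known products; other genes were named after values were seen. Some genes of these lists are not reported here by name. Members and lists were chosen with earlier results of these data known, and the sterol, mesothelial, fascial marker and rRNA lists after values were seen. ATAC counts were summed over peaks within 1000 bases of gene starts. Depth per library is given by the sums in the text.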

Additional observations from a re-analysis of the deposited data

Results flagged for a closer look

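For 5 genes the KO over WT ratio pointed one way in fibroblasts and the other way in another kind of nucleus from the same 2 libraries, and these differences were not tested. *Mkx*, a tendon factor, stood at a ratio of 3.09 (2.54 to 3.78) in fibroblasts and 0.140 (0.0635 to 0.278) in endothelial nuclei, with 53 UMIs in WT and 10 in KO. The endothelial rule did not leave out nuclei with *Tnmd*, and tenocyte markers summed to 434 CPM in WT and 87.6 CPM in KO there. The part of such nuclei in the *Mkx* ratio was not tested. In tenocyte nuclei (144 WT and 41 KO), *Runx1* had a ratio of 0.402 (0.166 to 0.840; 65 and 8 UMIs) against 2.16 in fibroblasts. The endothelial gene *Emcn* was at 0.126 there (26 and 1 UMIs) against 2.39, and the macrophage genes *F13a1* and *Mrc1* were at 0.105 (31 and 1 UMIs) and 0.326 (40 and 4 UMIs) against 3.03 and 2.37.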

How the results depend on the processing

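No paired analysis was possible because each genotype is 1 library and the labels give no replicate numbers. The count of higher genes, 940, became 3712 with no filter on low counts, 544 at 50 UMIs, 461 without nuclei holding 2 markers of another cell type, 552 in fascial marker nuclei alone and 396 after thinning to 2000 UMIs before the rule. The count of lower genes, 740, became 2687 with no filter and 490 at 50 UMIs. The share of nuclei taken by the rule, 25.4% in WT and 21.1% in KO, was 18.6% and 12.3% with 5 markers required and 11.9% and 8.18% without nuclei holding 2 markers of another cell type. It was 27.1% in WT without called doublets and 17.8% in KO after thinning. Higher genes were 56.0% of those called, 62.6% under TMM and 62.9% under RLE scaling, which moved the median log2 ratio to about 0, 34.0% after thinning, 35.0% in fascial marker nuclei and 34.8% without nuclei holding 2 markers of another cell type. *Efhd1* turned to a log2 ratio of 0.64 without fascial marker nuclei, *Lef1* to -0.046 with 5 markers required, and the *Angpt1* promoter to 0.0097 with only peaks over the gene start. The cause was not tested. Of the 12 higher and 12 lower genes with the largest differences, 2 and 7 were measured and called without nuclei holding 2 markers of another cell type, 4 and 7 after thinning, 5 and 12 without adipocyte and mesothelial marker nuclei (where 1 measured higher gene was not called) and 5 and 8 in fascial marker nuclei. The sets with or without fascial, adipocyte and mesothelial markers, and library sizes without rRNA repeat and mitochondrial genes, were chosen after seeing the data. With 1 library a genotype, counting error is the only error measured, and KO ATAC depth limits promoter comparisons.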
